A study of Homo sapiens with 6 samples.

Results

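The genes described here encode 10 proteins that recognise the 3′ part of introns: the SF3b subunits SF3B1, SF3B2, SF3B3, SF3B4, SF3B5, SF3B6 and PHF5A, the SF3a subunits SF3A1 and SF3A3, and the U2AF subunit U2AF2. They were chosen by name, and the peaks that overlap their hg19 intervals by 1 bp or more were collected from all 4 deposited peak lists. The genes held 14 of the 181131 peaks of the series. All 14 came from RIP-1, with 9 of the 10960 peaks of its mRNA list and 5 of the 25797 peaks of its non-exon list. RIP-2, whose lists hold 144374 peaks, had 0 in the 10 genes.

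SF3a and SF3b are protein complexes of the U2 small nuclear ribonucleoprotein, the particle that pairs with the branch site of an intron before splicing. U2AF binds the pyrimidine tract and the end of the intron beforehand, and its large subunit U2AF2 helps to bring the U2 particle in. SF3B1 clamps the branch site helix together with PHF5A, and SF3B4 is an RNA-binding subunit that contacts the pre-mRNA near the branch site. These proteins are needed for splicing in all human cells, and their genes are expressed widely.

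RNA bound to SF3B4 was recovered with an antibody and sequenced (RIP-seq). The cells were wild-type HEK293T, a line grown from human embryonic kidney cells and carrying large T antigen of SV40. There were 6 libraries of 3 groups, anti-SF3B4, IgG and input, each made once in RIP-1 and once in RIP-2. No drug, knockdown or time series is among the groups. The deposited data are peak calls per experiment, and each call is divided into a list named mRNA, here the mRNA list, and a list named NotExon, here the non-exon list. A peak is a stretch where the peak caller found an excess of reads, and its score, on a negative log scale, rises as the caller's p-value falls. The lists give no read counts, depth is unknown, and the level of each transcript in HEK293T was not measured in them. With 1 call per experiment there is no replicate error on a value, and intervals below cover counting error only.

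Of the 10 genes, 6 carried at least 1 RIP-1 peak. Peaks of the mRNA list lay in SF3B1, SF3B3, PHF5A and U2AF2, and peaks of the non-exon list in SF3B1, SF3A1, SF3A3 and U2AF2. SF3B2, SF3B4, SF3B5 and SF3B6 carried none. By complex, the 7 SF3b genes held 6 mRNA-list and 1 non-exon peak. The 2 SF3a genes held 0 and 3, and U2AF2 held 3 and 1. The RIP-1 peaks covered 43.7% of the length of U2AF2, against 7.82% of the SF3a genes and 1.81% of the SF3b genes. The map of peaks inside the genes shows this difference.

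**Figure D1:**
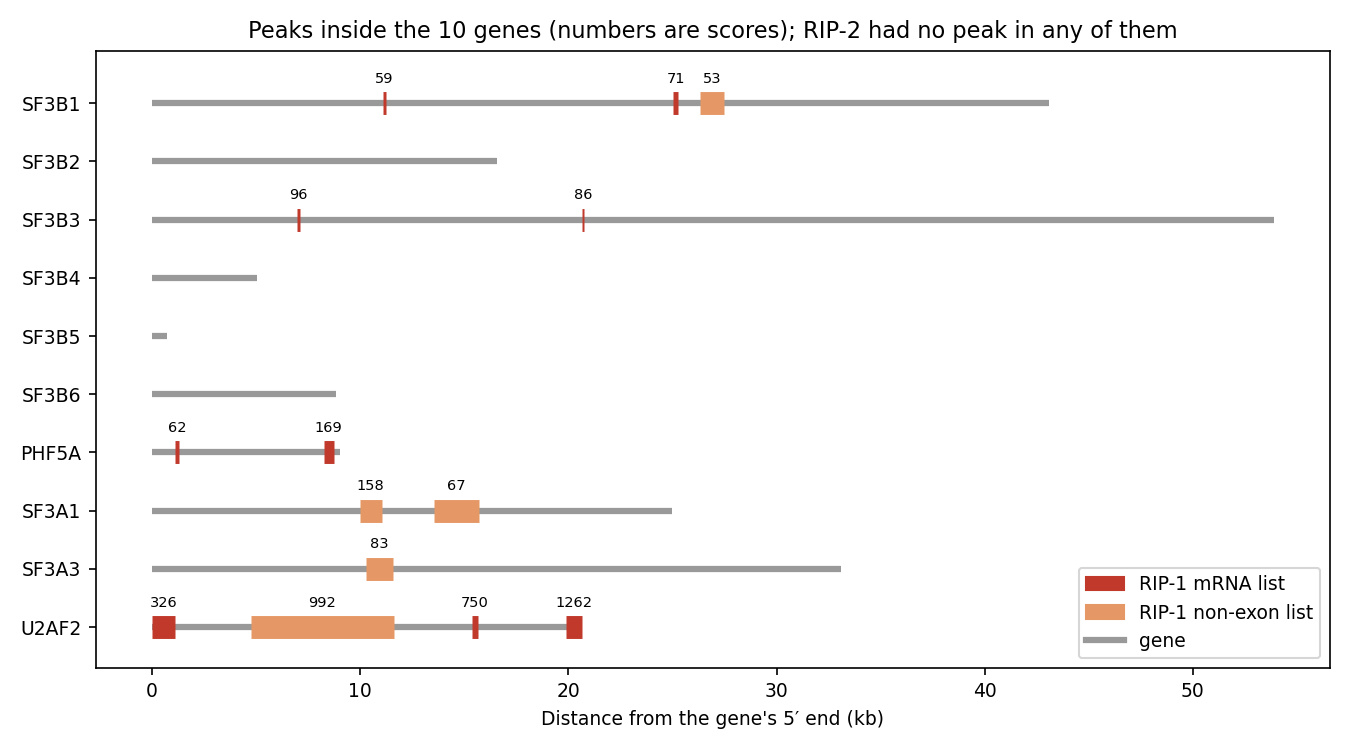
Peaks inside the 10 genes, drawn to scale along each gene from its 5′ end in kb, with RIP-1 mRNA-list peaks in red, RIP-1 non-exon peaks in orange and the score above each peak. U2AF2 carries 4 peaks with scores from 326 to 1262, the other peaks score 169 or less, 4 genes are empty, and RIP-2 gave no peak to draw.

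U2AF2 stood apart from the other genes in score. The gene lies on the plus strand of chromosome 19 from 56165416 to 56186082 (hg19, the build of every position given) and is 20.7 kb long. Its first mRNA-list peak, from 56165416 to 56166519, began at the first base of the gene and scored 325.61, rank 658 of 10960. The second, from 56180810 to 56181058, scored 749.86, rank 266. The third, from 56185300 to 56186082, ended at the last base of the gene and scored 1262.16, rank 153. All 3 therefore lay in the upper 6% of the mRNA list, and the start of the first and the end of the last coincide with the ends of the gene interval.

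The non-exon peak of U2AF2 ran from 56170148 to 56177048, between the first and the second of these segments. It was 6901 bp wide, which ranked 39 of 25797 in the RIP-1 non-exon list. Its score of 991.86 ranked 88 in that list. Its fold enrichment, the ratio to the control that the authors deposited, was 9.10 and ranked 2558, so score and width placed it much higher than fold did. Its false discovery rate (FDR), also the authors' value, was 4.73%. Of the 5 non-exon peaks in the genes, 1 (this peak) had an FDR of 5% or less, a limit that 0.678% of the RIP-1 non-exon list passed. The 4 peaks were separated by stretches of 3628, 3761 and 4241 bp without a peak.

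Chromosome 19 is rich in RIP-1 peaks, so the ranks were also taken within it. The third U2AF2 segment ranked 14 of the 665 mRNA-list peaks of chromosome 19, the second 29 and the first 76. The wide non-exon peak ranked 14 of 703. U2AF2 thus also ranked high on its own chromosome, but each of its peaks stood lower there, as a share of the peaks compared, than in its whole list. In the whole lists, the share with at least that score was 1.4, 2.43 and 6% for the third, second and first segment. It was 0.341% for the wide peak.

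PHF5A, a small zinc-binding SF3b protein that sits against SF3B1, had the next strongest mRNA-list peak. The gene lies on chromosome 22 from 41855721 to 41864729. A segment from 41856007 to 41856491 scored 168.75, rank 1671 of 10960, and lay 286 bp from the 3′ end of the gene. A second segment from 41863452 to 41863618 lay 1111 bp from the 5′ end and scored 62.18, rank 8046. PHF5A therefore had a segment near each of its ends, of which the one at the 3′ end was the stronger. The 5′ and 3′ ends of PHF5A, and of SF3B3 below, were set from the strand of their own segments.

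SF3B3, a scaffold of SF3b built of beta propellers, lies on chromosome 16 from 70557691 to 70611571. Its segment from 70564648 to 70564820 scored 96.32, rank 4040. Its segment from 70578341 to 70578436, only 96 bp wide, scored 86.48, rank 4844. Both lay in the part of the gene nearer to its 5′ end, centred at 13.1% and 38.4% of its length.

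SF3B1, the largest SF3b subunit and a gene often mutated in blood cancers, had 3 weak peaks. The gene is read from the minus strand of chromosome 2, between 198256698 and 198299771. The mRNA-list segment from 198274494 to 198274731 scored 70.8, rank 6581. The segment from 198288532 to 198288698 scored 58.91, rank 8721. The non-exon peak from 198272300 to 198273462 scored 52.88, close to the floor of 50 of the lists, with a fold enrichment of 3.05 that ranked 25765 of 25797 and an FDR of 100%. Each of the 3 scored below the median of its list, which was 79.9 for the mRNA list and 66.9 for the non-exon list.

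The SF3a genes had non-exon peaks only. SF3A1, which binds the other SF3a subunits, is read from the minus strand of chromosome 22, between 30727977 and 30752936. Its peak from 30741899 to 30742957 scored 157.67, rank 1106 of 25797, with a fold enrichment of 8.98 and an FDR of 77.64%. Its peak from 30737234 to 30739405 scored 66.78, with a fold enrichment of 3.95 and an FDR of 100%. SF3A1 thus held a peak in the upper 4.29% of its list by score and another at about the median.

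SF3A3, a zinc finger protein of SF3a, is read from the minus strand of chromosome 1, between 38422649 and 38455761. Its single peak from 38444195 to 38445506 scored 83.19, with a fold enrichment of 6.30, just under the list median of 6.55, and an FDR of 100%. The third SF3a subunit is not among the genes analysed here.

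Across the 9 mRNA-list segments the median score was 96.3, against 79.9 in the whole list, and 6 of the 9 were above that list median. Without U2AF2 the median of the other 6 was 78.6, and without SF3B1 or SF3B3 it was 169. Across the 5 non-exon peaks the median score was 83.2, against 66.9 in the list, and 75 without U2AF2. The median of so few segments therefore moves with single genes. All 5 non-exon peaks were wider than the list median of 710 bp, from 1059 to 6901 bp, and 2 of the 5 had a fold enrichment above the list median.

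**Figure D2:**
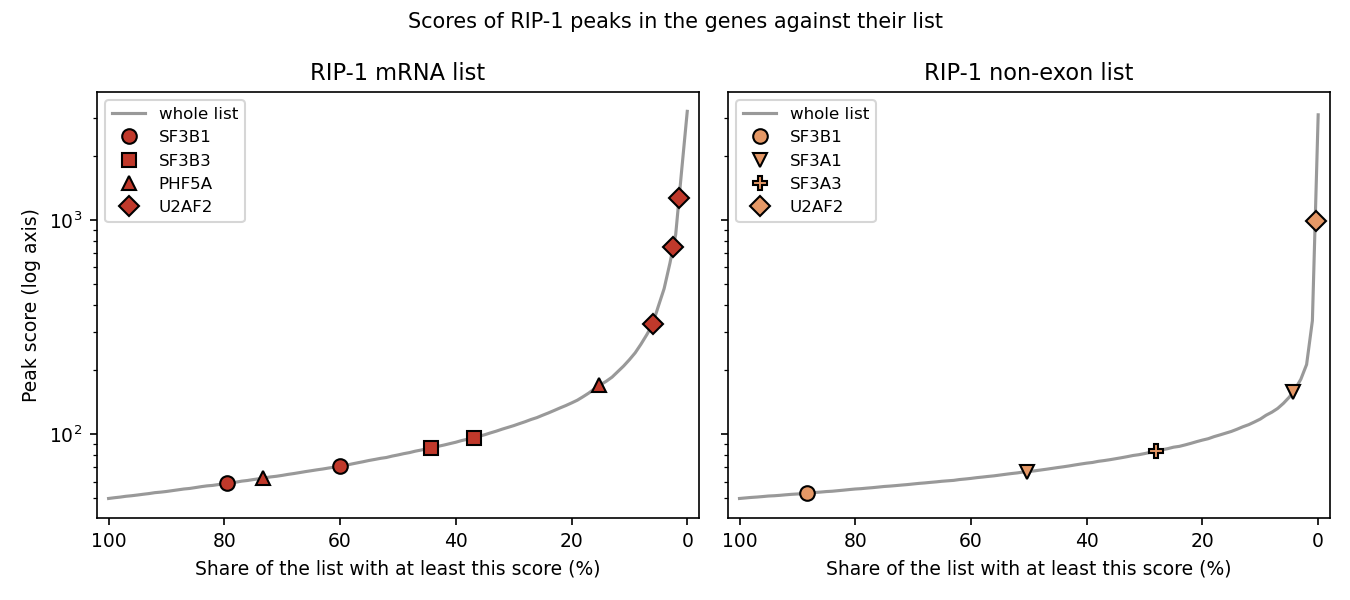
Scores of RIP-1 peaks in the genes (symbols, log axis) against the share of their list with at least that score (%), with the whole list as a grey line, for the mRNA list on the left and the non-exon list on the right. The 3 U2AF2 segments sit in the upper 6% of the mRNA list, the U2AF2 non-exon peak in the upper 0.341% of its list, and both SF3B1 segments below the median.

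The segments of the mRNA list carry a strand. In SF3B1 and U2AF2, whose strand is given by RefSeq, all 5 segments lay on the strand of the gene. Both SF3B3 segments were on the plus strand and both PHF5A segments on the minus strand, and the RefSeq table used gives no strand for these genes. The non-exon lists carry no strand, and no source used here says where the strand of the mRNA lists comes from. If it was assigned from a gene annotation, the match in SF3B1 and U2AF2 was fixed in advance, so it is no independent result. Every gene with a segment had at least 2. Neighbouring segments were 13.8 kb apart in SF3B1, 13.5 kb in SF3B3, 6.96 kb in PHF5A, and 14.3 and 4.24 kb in U2AF2. In the whole RIP-1 mRNA list the median distance to the nearest segment of the same strand was 17 kb. Distances inside a gene cannot exceed its length, so they are not measured like this median, and no conclusion is drawn.

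SF3B4 encodes the protein that the antibody recognises, and its own gene held no peak in either experiment. It is read from the minus strand of chromosome 1, between 149895209 and 149900236, and is 5.03 kb long. The nearest RIP-1 peak was 9.47 kb downstream of it and the nearest RIP-2 peak 49.6 kb upstream.

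SF3B2, which binds SF3B4 within SF3b and lies on chromosome 11 from 65819816 to 65836382, had its nearest RIP-1 peak 8.20 kb downstream. SF3B6, a branch site protein on chromosome 2 from 24290454 to 24299313, had its nearest RIP-1 peak 16.3 kb downstream. SF3B5, a small subunit on chromosome 6 from 144416018 to 144416754, had its nearest RIP-1 peak 96.7 kb downstream. These genes are short, and the 4 empty genes span only 31.2 kb together, where the peak density of all 10 genes in RIP-1 would give 2.02 peaks. The exact Poisson 95% interval for 0 there ends at 118 peaks per Mb, above the 64.8 per Mb of the 10 genes. These 4 genes were grouped because they held 0 RIP-1 peaks, so the interval cannot show whether their density is lower.

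Peak density sets the genes against their surroundings. In RIP-1 the 10 genes, 216 kb in all, held 41.7 mRNA-list peaks per Mb (exact Poisson 95% CI 19.1 to 79.1). Their flanks of 100 kb on each side held 17.5 per Mb (95% CI 12.2 to 24.3), and the whole list averaged 3.68 per Mb between the first and last peak of each chromosome. For the RIP-1 non-exon list the genes held 23.2 per Mb (95% CI 7.52 to 54.0), the flanks 10.5 (95% CI 6.5 to 16.1) and the whole list 8.59. The intervals of genes and flanks overlap in both lists. The gene value is set against a list mean that also counts stretches without transcripts, and no test was made.

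In RIP-2 the order was the opposite for the non-exon list. The genes held 0 RIP-2 non-exon peaks, while their flanks held 93, or 46.5 per Mb (95% CI 37.5 to 57.0), close to the mean of 44.6 of the whole list. The exact Poisson interval for 0 peaks in 216 kb ends at 17.1 per Mb, below the interval of the flanks. At the mean density of the list, 216 kb would hold 9.62 such peaks, and at the means of the chromosomes on which the genes lie, 10. For the sparse RIP-2 mRNA list, 0 in the genes against 10 in the flanks (5 per Mb, 95% CI 2.40 to 9.20) was not a detectable difference. RIP-2 non-exon peaks were also thinner near RIP-1 mRNA-list peaks across the genome, at 27.0 per Mb within 5 kb of them. RIP-2 mRNA-list peaks were denser there, and both RIP-2 lists together held 43.2 per Mb, against 48.0 over the whole lists. Peaks of a list crowd in places, so these intervals are too narrow. The control behind the RIP-2 call and the transcript levels of the genes are not in the lists, and their part in the result was not tested.

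**Figure D3:**
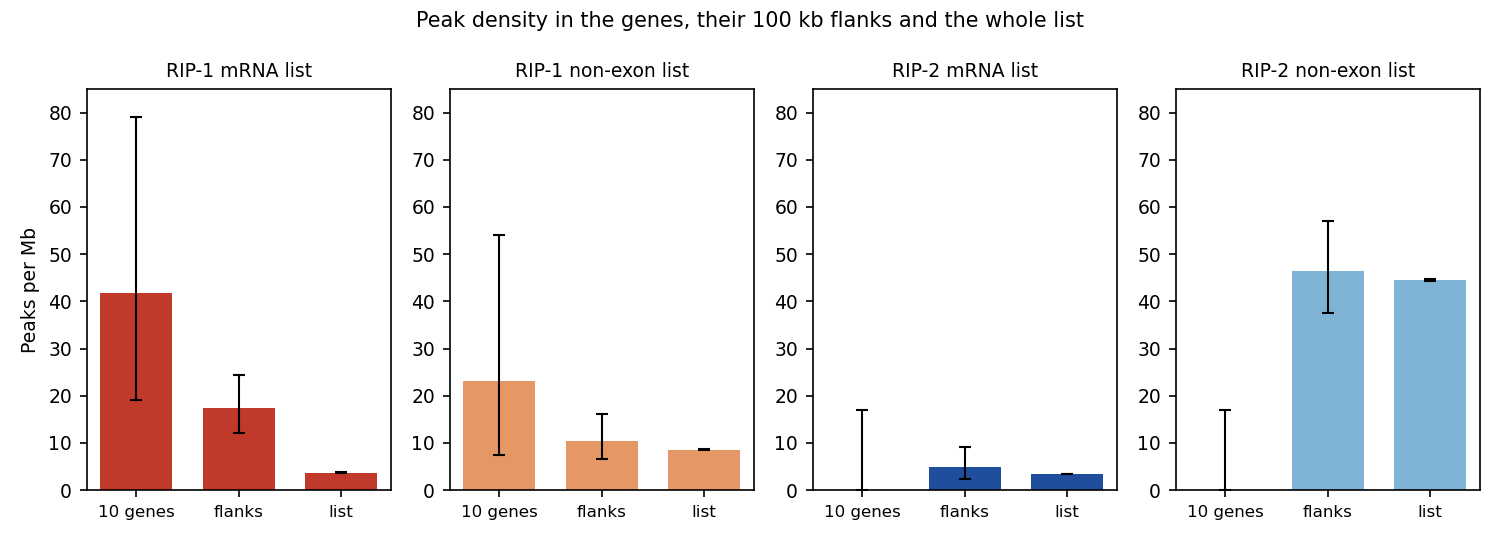
Peaks per Mb in the 10 genes, in their 100 kb flanks and in the whole list, for each of the 4 lists, with exact Poisson 95% intervals as error bars (counting error only). RIP-1 bars are highest in the genes, whereas both RIP-2 lists have 0 in the genes and the RIP-2 non-exon list has 46.5 per Mb in the flanks.

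RIP-2 peaks were present around every gene, with 7 to 19 in the flanks of each. The nearest RIP-2 peak was 4.07 kb from SF3B6, an mRNA-list peak downstream of the gene with a score of 59.99. It was 6.02 kb from SF3A1, 9.08 kb from SF3A3, 11.6 kb from PHF5A and 11.8 kb from SF3B1. For SF3B5, SF3B2 and SF3B3 it was 13.1, 13.6 and 16.9 kb away, and for U2AF2 and SF3B4 43.8 and 49.6 kb. The stretch without any RIP-2 peak around a gene was shortest at SF3B5, with 36.4 kb, and longest at U2AF2, with 136 kb. Stretches without RIP-2 peaks of at least that length make up 47.3% of chromosome 6 for SF3B5 and 15.1% of chromosome 19 for U2AF2. Over the 10 genes this share ran from 13.3% of chromosome 1 for SF3B4 to 47.6% of chromosome 2 for SF3B6. It is a share of chromosome length, from which no region was taken out. How often a gene of a given length is free of RIP-2 peaks was not measured. The 0 of RIP-2 rests on all 10 genes together.

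**Figure D4:**
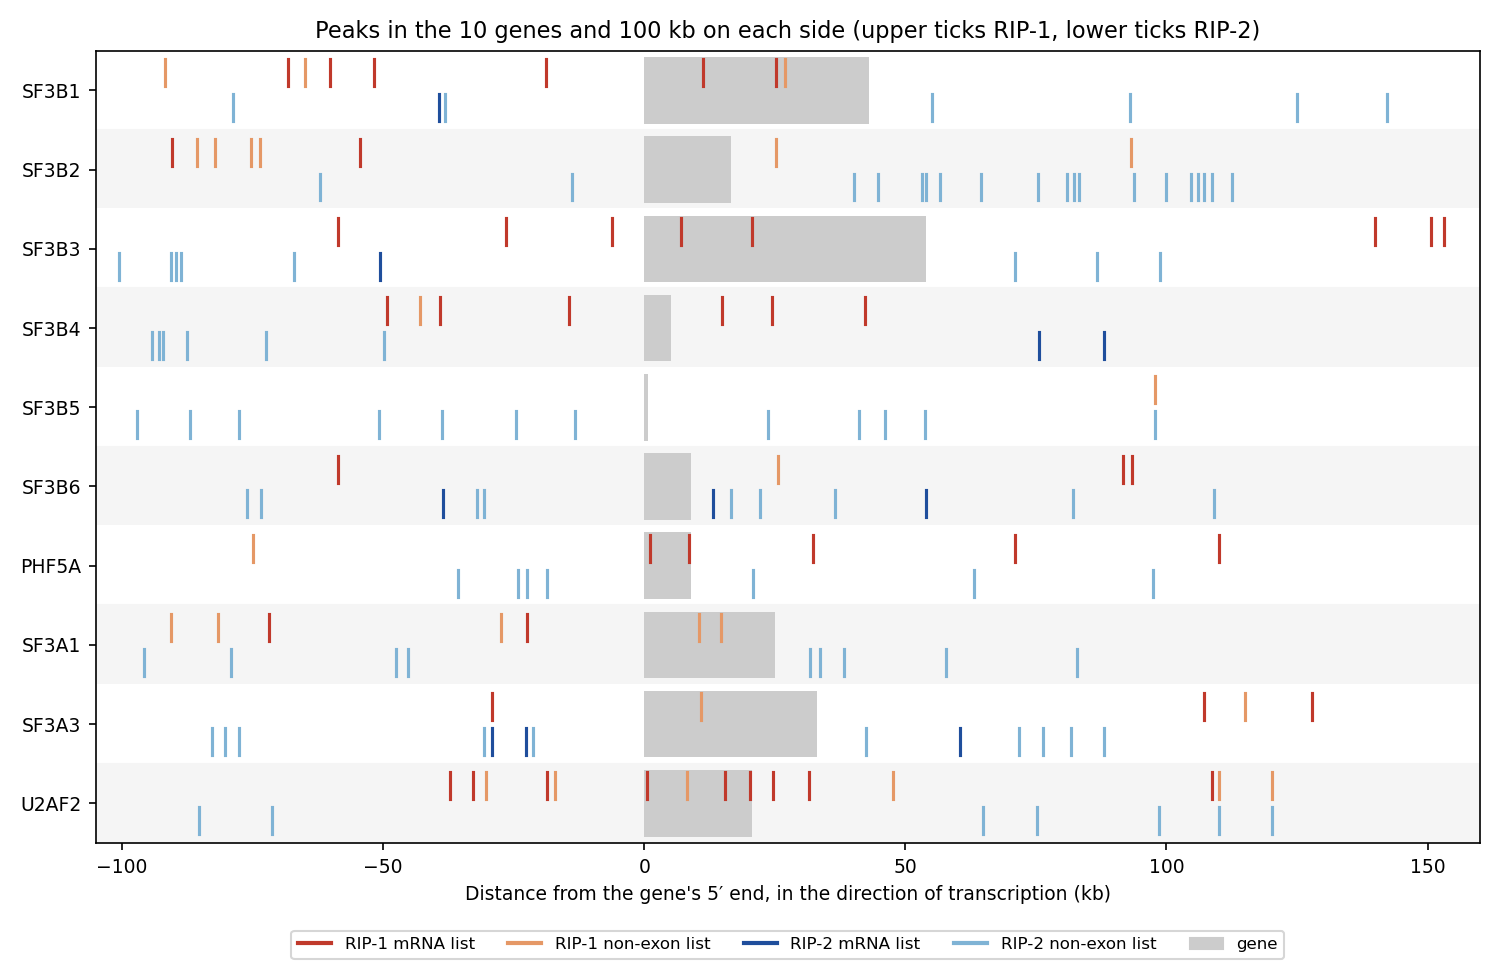
Peaks within each gene (grey box) and 100 kb on each side, by distance in kb from the 5′ end in the direction of transcription, with RIP-1 peaks as upper ticks and RIP-2 peaks as lower ticks in each row, placed at the middle of the peak. RIP-2 ticks lie on both sides of all 10 genes and inside none, while RIP-1 ticks lie inside 6.

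The comparison of RIP-1 with RIP-2, which the design text of the series gives as the way to set aside non-specific signal, left no peak in these genes. Of the 9 mRNA-list segments, 0 overlapped a RIP-2 segment of the same strand, which by 3 counts allows a share of up to 33.3%, and the share in the whole RIP-1 mRNA list was 6.41%. None of the 5 non-exon peaks (0 of 5) had an overlapping partner in the RIP-2 non-exon list, which allows up to 60.0%, against 18.1% in the whole list. With so few peaks, neither count differs detectably from its list. Both counts also follow from the 0 RIP-2 peaks in the genes, since every one of these RIP-1 peaks lies inside its gene.

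Distance extends the same comparison, but it also rests on the 0 of RIP-2 in the genes. No RIP-2 peak of either list came within 10 kb of the 9 mRNA-list segments (0 of 9), whereas 50.3% of all RIP-1 mRNA-list peaks had one. None came within 10 kb of the 5 non-exon peaks (0 of 5), against 71.8% of the whole list. The closest RIP-2 peak was 11.9 to 63.3 kb from the mRNA-list segments, with a median of 43.8 kb against 9.92 kb in the list. For the non-exon peaks it was 15.3 to 52.8 kb away, with a median of 27.4 kb against 4.11 kb. The 14 peaks lie in 6 genes and are not independent, and the distance of 10 kb was chosen after the lists had been seen. In the 4 genes with segments, the nearest RIP-2 peak lay 11.6 kb or more outside the gene, so the 0 of 9 was fixed. All these distances include the stretch to the edge of a gene without RIP-2 peaks, so they are no separate result.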

How the data were processed

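Per the labels, 6 RIP-seq libraries of wild-type HEK293T cells were made, and the submitters' processing notes name cutadapt 1.9.3, HISAT2 2.0.4 and hg19. Peak names carry the prefix of MACS; no source used here gives its version, settings or control. The IgG and input libraries have no list of their own. Each deposited list comes from 1 experiment. The deposited score of a peak has a floor of 50. The deposited non-exon lists also give the fold enrichment and the FDR in percent, read from their column order because there is no header. Non-exon positions count from 1. Starts of the mRNA lists were taken to count from 0 and were raised by 1: none of 21240 segments had equal edges as deposited, while 11 were 1 bp long under this reading. The edge of U2AF2 fits the same reading.

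Peaks overlapping a gene by 1 bp or more were collected with Python 3.11.15, pandas 2.3.3 and numpy 2.4.6, and intervals were computed with scipy 1.17.1. The interval functions were tested on simulated data. Gene intervals are those of the rule that defines the group. Strand came from RefSeq (GRCh38.p14) for 8 genes, and for SF3B3 and PHF5A from their segments. RIP-1 and RIP-2 peaks were shared when they overlapped by 1 bp or more in the same kind of list, on the same strand where given. All 10 genes and all their peaks are named. The genes, lists and settings were chosen with earlier results of these data known. No annotation or sequence of hg19 was used here, so exons, other splicing genes and the sequences of the peaks were not analysed here. Alternatives were stricter overlaps, wider genes, the upper 50% by score, strand, and genes left out in turn.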

Additional observations from a re-analysis of the deposited data

How the results depend on the processing

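Of 75 alternative values, 66 stayed near the main value (counts and medians within 1.5 times, densities within their counting interval), and 9 moved further. Part of the 66 could not move. A RIP-2 count or density of 0 stays at 0 under a stricter rule or with a gene left out. The same holds for the 0 overlaps between experiments when a larger overlap is asked for. The 66 is therefore no measure of stability. With the upper 50% of the list by score, the RIP-1 non-exon peaks in the genes fell to 3. Widening the genes by 20 kb on each side, added after seeing the data, gave 17 RIP-1 mRNA-list peaks, 8 RIP-1 non-exon peaks and 12 RIP-2 non-exon peaks. The RIP-2 non-exon list had 4 peaks at 10 kb, and the RIP-2 mRNA list 1 at each of 5, 10 and 20 kb. At 1 kb both RIP-2 lists still had 0. More peaks in wider genes follow from the construction. Leaving out 1 gene in turn kept the RIP-1 densities between 30.7 and 49.2 per Mb for the mRNA list and between 15.7 and 30.9 for the non-exon list; the median scores ranged from 78.6 to 169 (without SF3B1 or SF3B3) and from 75 to 120. Flanks of 50 or 200 kb, also added later, held 43 and 50 RIP-2 non-exon peaks per Mb. No paired analysis was possible because the lists hold peak calls and no values per library. The unknown depth limits every comparison of RIP-1 with RIP-2.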

Other observations

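The flanks of the genes did hold peaks found in both experiments. Of 35 RIP-1 mRNA-list segments in the flanks, 1 overlapped a RIP-2 segment of the same strand (2.86%). It lay 29.2 kb upstream of SF3A3, with a RIP-1 score of 108.59, a RIP-2 score of 284.48 and an overlap of 131 bp. Of 21 RIP-1 non-exon peaks in the flanks, 4 overlapped a RIP-2 non-exon peak (19.0%), near the 18.1% of the whole list. They lay far from the genes, in the downstream flanks of SF3B2, SF3B5 and U2AF2. Counted from the first base of the gene, the RIP-1 peaks began at 92211 bp for SF3B2 and 97481 bp for SF3B5. For U2AF2, which is 20.7 kb long, they began at 110000 and 120004 bp. The pair with the highest RIP-1 score, the farther one from U2AF2, scored 342.29 in RIP-1 and 220.2 in RIP-2. Its fold enrichments were 13.55 and 12.05, and its overlap was 232 bp. The other pair in the flank of U2AF2 had scores of 288.08 and 130.8.

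RIP-2 non-exon peaks were thinner close to RIP-1 mRNA-list segments across the genome. Within 25 kb of all such segments the density was 46.2 per Mb, near the mean of 44.6 of its list. Within 10 kb it had 37.3 and within 5 kb 27.0 per Mb. RIP-2 mRNA-list peaks went the other way, with 11.5, 13.8 and 16.2 per Mb at 25, 10 and 5 kb, against a list mean of 3.44. Both RIP-2 lists together held 57.7, 51.1 and 43.2 per Mb at 25, 10 and 5 kb, against a mean of 48.0. RIP-2 peaks of both kinds together were thus slightly thinner only within 5 kb. The 10 genes had 0 peaks of either RIP-2 list, and the exact Poisson interval for 0 ends at 17.1 per Mb for each list. That bound is below the 3 non-exon values and above the 3 mRNA-list values. The distances were chosen after the lists had been seen, and the windows are not the gene intervals, so no test was made.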
